A study of Mus musculus with 24 samples.

Results

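The transcription factors described here are 9 genes that build and maintain the identity of skeletal muscle: the myogenic regulatory factors Myf5, Myod1, Myog and Myf6, the stem cell factor Pax7, the homeobox factor Six4, and the MEF2 factors Mef2a, Mef2c and Mef2d. They were chosen by name, as the rows of the deposited count table whose mouse symbol is one of these 9, among 47643 gene IDs in all, and all 9 were present. The samples were plantaris muscles, a fast muscle of the calf, from wild-type C57BL/6 mice that breathed normal air (11 samples) or were exposed to tobacco smoke for 16 weeks (13 samples). No age, sex or time of day was given in the labels, and nothing in them says whether each sample is a separate animal, so that p-values measure the spread between samples. RNA was read from the 3′ end of transcripts (Lexogen QuantSeq), so that counts do not grow with gene length. The comparison asks whether chronic smoke exposure, which the series title links to the aryl hydrocarbon receptor and muscle impairment, was accompanied by other levels of these factors.

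The myogenic regulatory factors are basic helix-loop-helix proteins that pair with E proteins and bind E-boxes in muscle genes. Myf5 and Myod1 commit cells to the muscle fate, Myog drives their differentiation, and Myf6 (also called MRF4) stays on in mature fibres. Pax7 marks satellite cells, the stem cells that lie against the fibre. MEF2 proteins work beside the myogenic factors in the fibre nucleus, where class IIa histone deacetylases hold them in check and calcium signals through calcineurin and CaM kinases release them. Six4 and its relatives act with EYA cofactors upstream of the myogenic factors and in fast fibres. Because whole muscle was sequenced, fewer cells of a type and less RNA per cell cannot be told apart.

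The promoters of Myog, Mef2d and Six4 are shown, the first because it carries motifs of the myogenic, MEF2 and Six4 factor families and the others because these transcripts moved together most closely among samples. Each is the 250 bases before the RefSeq transcription start (GRCm38.p6), read on the gene's own strand. Capitals mark E-boxes (CANNTG, the sequence bound by myogenic factors, found in 66.2% of 32851 promoters of this length), the core of the MEF3 motif bound by Six4 and its relatives (TCAGGTT, 3.49%) and the MEF2 motif with its last base free (7.03%), all searched on both strands.
Myog, chr1:134289754-134290003, plus strand: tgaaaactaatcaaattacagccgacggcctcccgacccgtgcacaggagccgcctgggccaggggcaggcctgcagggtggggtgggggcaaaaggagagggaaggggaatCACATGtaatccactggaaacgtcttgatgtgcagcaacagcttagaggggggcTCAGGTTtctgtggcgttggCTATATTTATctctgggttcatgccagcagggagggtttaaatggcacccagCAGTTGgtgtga
Mef2d, chr3:88142122-88142371, plus strand: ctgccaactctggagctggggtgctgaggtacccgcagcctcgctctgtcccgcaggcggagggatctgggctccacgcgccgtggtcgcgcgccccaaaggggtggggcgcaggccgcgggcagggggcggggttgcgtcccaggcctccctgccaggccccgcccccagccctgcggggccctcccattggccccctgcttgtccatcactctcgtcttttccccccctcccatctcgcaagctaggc
Six4, chr12:73113426-73113675, minus strand: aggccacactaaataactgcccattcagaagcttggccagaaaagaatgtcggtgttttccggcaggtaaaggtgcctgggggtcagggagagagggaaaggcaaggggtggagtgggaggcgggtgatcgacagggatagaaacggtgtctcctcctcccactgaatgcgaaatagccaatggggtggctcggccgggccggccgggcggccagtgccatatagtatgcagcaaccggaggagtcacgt

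The Myog window held 2 E-boxes, starting at −138 and −12 from the transcription start, 1 MEF3 core at −84 and 1 MEF2 motif at −64. The windows of Mef2d and Six4 held none of these letters, and differed from it in base composition, with 73.2% and 58.8% G and C against 56.4% for Myog and a median of 52.4% over all promoters. Of the other members, Mef2c held 2 E-boxes, 1 MEF3 core and 1 MEF2 motif before the start nearest to its annotated 5′ end, and Pax7, Mef2a and Myf5 held none. The E-box form CACGTG that clock factors bind, present in 6.02% of promoters, was in none of the 7 windows. A match is a description of these letters and not a binding site. The table of promoters matched 7 of the 9 members; Myod1 and Myf6 are named only.

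Total counts per sample ranged from 2515697 to 4528845, and 3 counts, the limit that a count of 0 allows, corresponded to 0.665 to 1.15 CPM (counts scaled to a common library total, after TMM correction). This limit, and the exact interval given for Myf5, cover counting error only, while the intervals from edgeR include the spread between samples. Of 10159 genes that passed the expression filter, 195 (1.92%) were called between smoke and air (edgeR quasi-likelihood test, Benjamini-Hochberg adjusted p under 0.05), 0.728% higher and 1.19% lower. Fast fibre genes defined the tissue, with 10 of 10 markers tested and a summed level of 222345 to 344493 CPM in air and 231303 to 293816 in smoke, against 351 to 719 and 293 to 630 CPM for 6 slow fibre markers. One air library, replicate 11, stood apart: the 10 most abundant genes took 45.8% of its counts, against 36.9% to 39.7% in the other air samples and 38.6% to 44.6% in smoke. Markers of Schwann cells and myelin were called higher for 6 of 8 tested genes, with sums of 125 to 289 CPM in air and 186 to 939 in smoke. Red blood cell markers were called lower for 3 of 5, with sums of 486 to 1444 CPM in air and 369 to 883 in smoke. Across samples, after group means were removed, no tested factor passed with the myelin or the blood marker sum (r from −0.39 to 0.29, permutation adjusted p from 0.228 to 0.995 over 48 relations).

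The factors spanned a wide range of levels, in the same order in most samples. On the scale of normalised CPM of a 3′-end library, Mef2c stood at a mean of 563 over the 24 samples and was followed by Mef2d at 177, Mef2a at 48.8, Six4 at 38.0, Myf6 at 20.8, Myod1 at 14.8, Pax7 at 4.12, Myog at 3.12 and Myf5 at 0.101. Mef2c exceeded Mef2d, and Mef2d exceeded Mef2a, in 24 of 24 samples. Mef2a exceeded Six4 in 23 and Six4 exceeded Myf6 in 24. The neighbours that overlapped most were Myf6 and Myod1, with Myf6 higher in 20 of 24, and Pax7 and Myog, with Pax7 higher in 18 of 24. Among tested genes Mef2c stood at the 98.4th percentile by mean level, Mef2d at the 94.6th, Myod1 at the 52.0th and Myog at the 3.30th. The fourth MEF2 gene, Mef2b, had 0 counts in every sample.

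None of the 9 factors was called between smoke and air, against 1.92% of all tested genes. At an unadjusted p under 0.05 there was 1 among the 8 that passed the filter, Myod1, where 15.5% of all tested genes were. DESeq2 and limma voom also called 0 and had 1 at an unadjusted p under 0.05, while that number was 0 with thinned counts, and 2 with 1 surrogate variable (Six4 added), without air replicate 11 (Mef2d added) and without a filter (Myf5 added). The unadjusted share in the same direction, lower under smoke, was 7.95%. No factor had groups that did not overlap in CPM, and 0.0295% of all tested genes had. Of these 8, 7 had a fold change below 0, and their median log2 fold change was −0.073, while 48.4% of all tested genes were below 0 with a median of 0.0066. The sign of Pax7 turned under limma voom and with several single samples left out. Leaving out any 1 sample, air replicate 11 included, left 0 factors called.

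**Figure D1:**
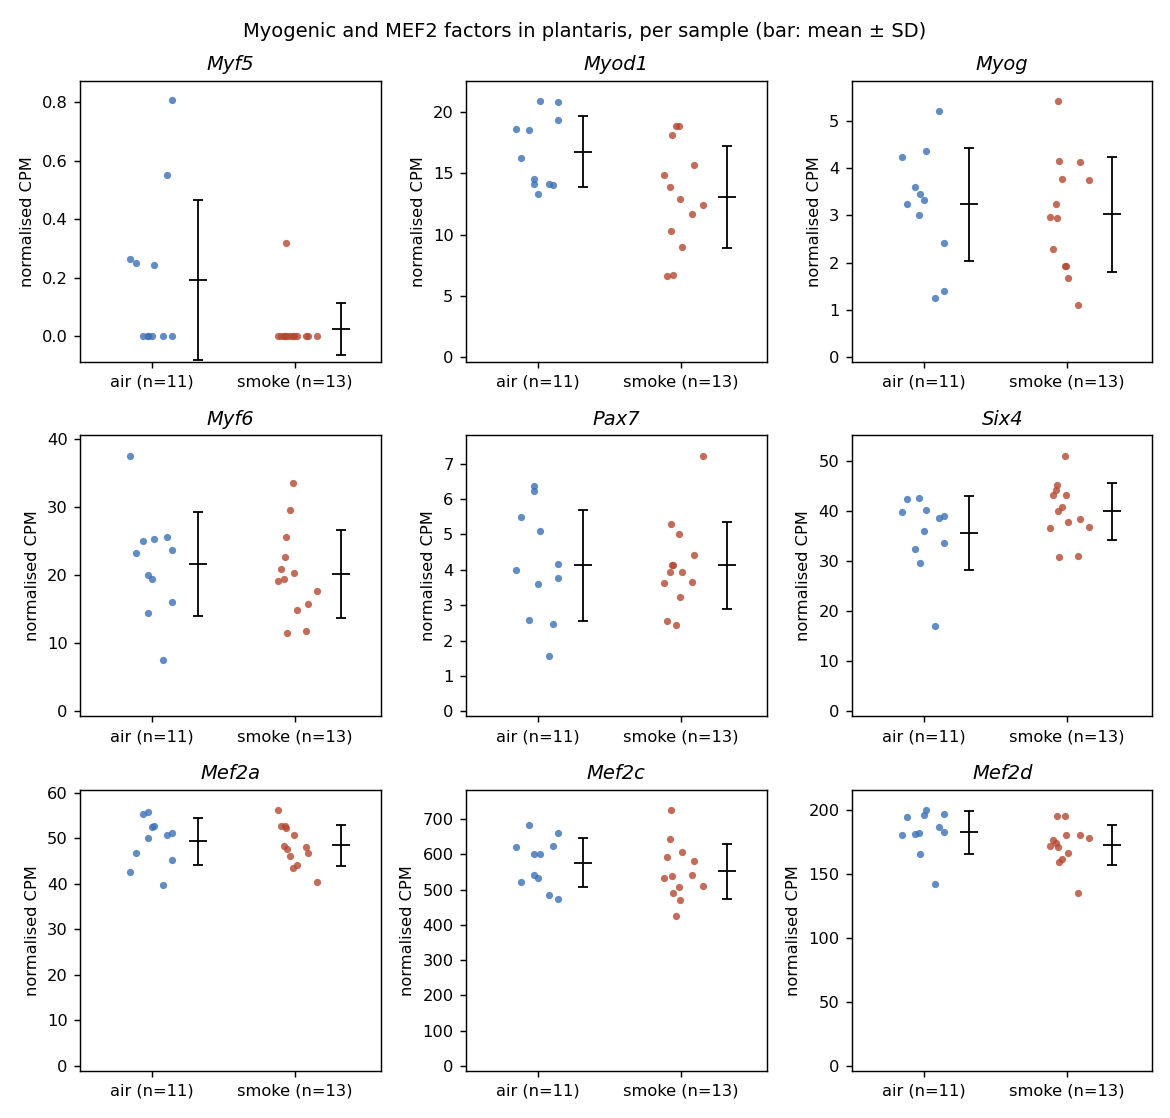
Normalised CPM of the 9 factors in each sample (points) with the mean and SD of each group (bars), for air (n = 11) and smoke (n = 13), each panel with its own linear axis. Myod1 is the factor with the most smoke samples below the whole air range, 7 of 13, and every other panel shows largely overlapping groups.

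Myf5, the earliest of the myogenic factors and a gene of satellite cells in adult muscle, was at the limit of detection. It had 8 reads in air, spread over 5 of 11 samples with at most 3 in any of them, and 1 read in smoke, in 1 of 13 samples. On the pooled totals this is 0.206 against 0.0222 CPM, a ratio of 0.108 with an exact 95% interval from 0.00243 to 0.804 for counting error. A two-sided permutation test on CPM gave p = 0.0456 for this single gene. It did not pass the expression filter, and in the edgeR fit without a filter, where 0.727% of 27644 genes were called, its adjusted p was 0.233. Every Myf5 value lay under 3 counts except that of 1 air sample, which had exactly 3.

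Myod1, which commits cells to the muscle fate and in adult muscle is known from fast fibres and activated satellite cells, had the smallest p-value of the factors. In air its lowest, median and highest values were 13.3, 16.3 and 20.9 CPM, and in smoke 6.63, 12.9 and 18.8 CPM. The groups overlapped: 10 of 13 smoke samples were under the air mean, 7 of 13 below the lowest air sample and none above the highest. Means were 16.8 ± 2.92 (SD, n = 11) and 13.1 ± 4.21 (SD, n = 13), with a log2 ratio of smoke to air at −0.37 (SE 0.14, 95% interval −0.66 to −0.073, edgeR unadjusted p = 0.0158). It did not pass after adjustment over all genes (edgeR adjusted p = 0.190, 843rd of 10159 by p), nor under any alternative, where the adjusted p ranged from 0.105 to 0.458. The coefficient of variation was 32.2% in smoke and 17.4% in air, a difference that was not tested. The lowest values were those of smoke replicates 8 and 2. Of 6 library measures Myod1 followed the share of Gm42418, a locus overlapping ribosomal RNA, most closely, at r −0.48 (permutation p = 0.0266, adjusted p = 0.116, rho −0.50), and −0.41 with the 2 samples dropped that lay farthest out in that share. Myf6, Mef2d and Six4 had a stronger r with the Gm42418 share and passed, at −0.61, −0.56 and −0.54 (permutation adjusted p = 0.0103, 0.0254 and 0.0254). The median of that share was 14.1% in smoke and 12.6% in air, and its part in the Myod1 difference was not tested. With the summed myelin markers Myod1 had r −0.33 over 24 samples (permutation p = 0.198, adjusted p = 0.365), and −0.10 with the 2 samples dropped that lay farthest out in that sum.

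Myog, the factor of terminal differentiation that also rises when fibres lose their nerve, was close to the detection limit, at 3 to 19 reads per sample. Its lowest, median and highest values were 1.26, 3.33 and 5.22 CPM in air and 1.098, 2.97 and 5.42 CPM in smoke, and the ranges overlapped almost entirely. Its log2 ratio was −0.10 with a 95% interval from −0.56 to 0.36 (edgeR adjusted p = 0.888). On the linear scale that interval reached from 0.679 to 1.28. Its coefficient of variation, 37.2% in air and 40.3% in smoke, was above the 29.3% and 30.8% that counting alone gives. The spread beyond counting that edgeR estimated for Myog was 22.9%.

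Myf6, the myogenic factor of mature fibres, made up the largest part of the myogenic factor reads, with a median of 52.7% of their summed CPM in air and 53.2% in smoke; Myod1 took 39.3% and 36.7%. Its values ran from 7.56 over a median of 23.3 to 37.5 CPM in air, and from 11.5 over 19.5 to 33.4 CPM in smoke. Every smoke sample lay within the air range. Its log2 ratio was −0.11 (SE 0.17, 95% interval −0.46 to 0.23, edgeR adjusted p = 0.817), and ranged from −0.20 without air replicate 11, the sample with the lowest Myf6, to −0.0040 without air replicate 10, the one with the highest. Its coefficient of variation was 35.4% in air and 32.03% in smoke.

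Pax7, the marker of satellite cells, was read at 5 to 25 counts per sample. In air it ran from 1.57 over a median of 3.98 to 6.37 CPM, and in smoke from 2.44 over 3.94 to 7.21 CPM. The means were 4.12 in both groups, with SDs of 1.56 and 1.24, and the log2 fold change was −0.0034 with a 95% interval from −0.41 to 0.40 (edgeR adjusted p = 0.996). Of the other 16 genes listed for satellite cells 12 were tested and 0 were called (2 at an unadjusted p under 0.05, where 15.5% of tested genes were). Those with the smallest p-values were the proteoglycan Sdc4, at 9.63 ± 1.58 and 7.28 ± 1.95 CPM (edgeR adjusted p = 0.115), and the lectin Chodl, at 17.9 ± 2.87 and 14.9 ± 3.22 CPM (edgeR adjusted p = 0.233). Calcr, which marks quiescent satellite cells, had 54 reads in air and 76 in smoke and did not pass the filter.

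Six4, a homeobox factor upstream of the myogenic genes, was the single tested factor with a fold change above 0. Its lowest, median and highest values were 17.0, 38.8 and 42.6 CPM in air and 30.9, 40.2 and 51.1 CPM in smoke. Samples from smoke lay above the air mean in 11 of 13 cases and above the highest air sample in 5 of 13. Its log2 ratio was 0.16 (SE 0.10, 95% interval −0.042 to 0.37, edgeR adjusted p = 0.469). The lowest value belonged to air replicate 11, and with single samples left out the log2 fold change ranged from 0.087, without that one, to 0.19. Of 9 genes in this family and among its EYA and DACH cofactors 5 were tested and 0 were called. At an unadjusted p under 0.05 there were 0, against 15.5% of all tested genes. The cofactor Eya1 stood at 0.096 in log2 ratio (edgeR adjusted p = 0.597).

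The MEF2 factors were the most abundant members, with coefficients of variation within groups from 9.08% to 14.3%. Mef2c, the main MEF2 transcript of these muscles, ran from 472 over a median of 601 to 684 CPM in air and from 424 over 538 to 725 CPM in smoke. It made up a mean of 71.2 ± 2.32% of the summed MEF2 CPM in air and 71.2 ± 2.76% in smoke. Its log2 ratio was −0.065 (SE 0.071, 95% interval −0.21 to 0.080, edgeR adjusted p = 0.727). Mef2d ran from 142 over 183 to 199 CPM in air and from 135 over 174 to 195 CPM in smoke, and 11 of 13 smoke samples were under the air mean. Its log2 ratio was −0.081 (SE 0.058, 95% interval −0.20 to 0.037, edgeR adjusted p = 0.548). Mef2a ran from 39.7 over 50.6 to 55.6 CPM in air and from 40.4 over 48.0 to 56.1 CPM in smoke, with a log2 ratio of smoke to air at −0.027 (SE 0.066, 95% interval −0.16 to 0.11, edgeR adjusted p = 0.896). Across these 3 genes the 95% intervals of the fold reached from 0.864 (Mef2c) to 1.076 (Mef2a). Mef2d overlaps an antisense gene and Mef2a overlaps genes on both strands, and since strand use in counting was not stated their counts are uncertain to that extent.

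**Figure D2:**
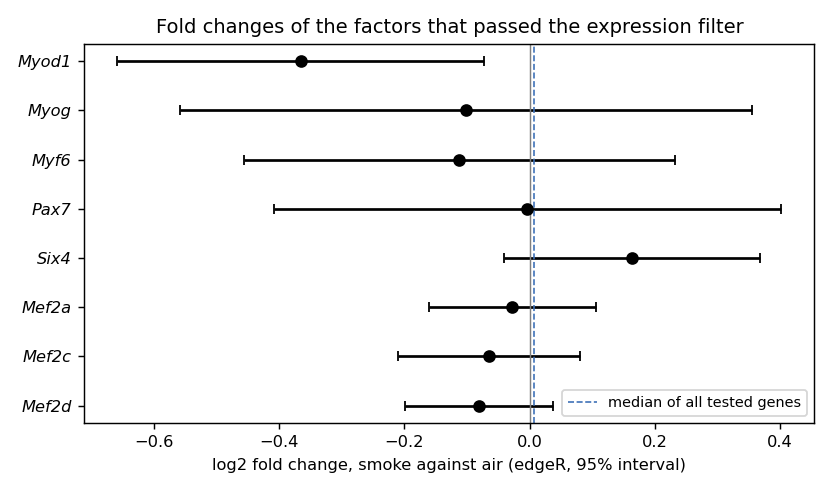
Log2 fold change of smoke against air for the 8 factors that passed the expression filter (points, edgeR) with 95% intervals (bars), and the median of all tested genes (dashed line). The interval of Myod1 lies below 0 without adjustment, those of the other factors include 0, and the MEF2 intervals are the narrowest.

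The genes around the factors changed in a few places. Of 23 listed partners and regulators of MEF2, 20 were tested and 2 were called, both lower under smoke (1.19% of all tested genes were called lower). Rcan1, a feedback inhibitor of calcineurin whose transcript rises with calcineurin activity, had 116, 176 and 257 CPM as its lowest, median and highest values in air and 78.2, 114 and 194 CPM in smoke. It fell from 177 ± 43.4 to 113 ± 27.8 CPM (log2 ratio −0.65 with SE 0.12, and 0.00226 as adjusted p by edgeR), and 11 of 13 smoke samples lay below the whole air range. Hdac5, a class IIa deacetylase that binds and represses MEF2, fell from 62.6 ± 10.4 to 50.7 ± 4.64 CPM (log2 ratio −0.30 with SE 0.076, and 0.0261 as adjusted p by edgeR). All 13 smoke samples were below its air mean, though the ranges overlapped at 49.7 to 84.1 CPM in air and 44.8 to 59.2 CPM in smoke. Without air replicate 5 or air replicate 8 the adjusted p of Hdac5 was 0.0549 or 0.0510. Rcan1 overlaps an antisense gene, so its counts are uncertain to that extent.

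Of 24 muscle genes listed for known E-box or MEF2 control, 21 were tested and 2 were called, both lower (1.19% of all tested genes were). Of the 21, 16 had a fold change below 0, with a median log2 fold change of −0.054. Over all tested genes 48.4% were below 0, with a median of 0.0066. Mb, which encodes myoglobin, fell from 7163 ± 863 to 5594 ± 532 CPM (log2 ratio −0.36 with SE 0.061, and 0.00107 as adjusted p by edgeR), and 9 of 13 smoke samples lay below the whole air range. Xirp1, an actin-binding protein of the intercalated disc and of injured fibres, fell from 43.0 ± 13.1 to 26.4 ± 10.5 CPM (log2 ratio −0.71 with SE 0.16, and 0.0142 as adjusted p by edgeR). The air mean was above 12 of 13 smoke samples. Both overlap other annotated genes. The list was assembled with earlier results of these data known, and Mb was among those results.

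Of 16 differentiation and fusion genes 12 were tested and 1 was called, lower under smoke (1.19% of all tested genes were). Mybph, a myosin-binding protein of skeletal muscle, fell from 9.87 ± 6.84 to 4.34 ± 2.90 CPM (log2 ratio −1.20 with SE 0.31, and 0.0325 as adjusted p by edgeR). Its ranges, 1.59 to 25.8 CPM in air and 1.85 to 13.1 CPM in smoke, overlapped fully, and 12 of 13 smoke samples were below the air mean. The call was lost under limma voom (adjusted p = 0.104), with sample weights (adjusted p = 0.0570), and without air replicate 1 or 7 or smoke replicate 6, 9 or 12, with a log2 fold change of −0.94 without air replicate 7. The fusion genes Mymk and Mymx had 1 and 3 reads in all air samples together and 3 each in smoke. Of 13 denervation genes 10 were tested and 0 were called (2 at an unadjusted p under 0.05, where 15.5% of tested genes were). The ubiquitin ligase Trim63 had 174 ± 39.9 and 138 ± 20.8 CPM (edgeR adjusted p = 0.0568) and Fbxo31 97.2 ± 12.97 and 87.9 ± 10.1 CPM (edgeR adjusted p = 0.306).

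The partners that dimerise with the myogenic factors were not called either. Of 15 E proteins and helix-loop-helix inhibitors 9 were tested and 0 were called (1 at an unadjusted p under 0.05, where 15.5% of tested genes were). Tcf4, an E protein, had 75.0 ± 3.64 CPM in air and 82.8 ± 7.14 CPM in smoke (log2 ratio 0.14, and 0.165 as adjusted p by edgeR), and Heyl, a Notch target, 4.89 ± 1.78 and 4.10 ± 1.90 CPM (edgeR adjusted p = 0.646). Among 24 other muscle transcription factors 23 were tested and 1 was called, higher under smoke (0.728% of all tested genes were). Mrtfa, the actin-regulated cofactor of SRF, rose from 29.4 ± 4.63 to 36.7 ± 5.53 CPM (log2 ratio 0.33 with SE 0.090, and 0.0494 as adjusted p by edgeR), with 9 of 13 smoke samples above the whole air range. That call lay at the threshold and was lost in 19 of the 24 fits that left out a sample, with adjusted p-values up to 0.0928, and Mrtfa overlaps other genes on both strands. Of 14 clock factors 13 were tested, with Dbp, Per3 and Nr1d2 called higher (0.728% of all tested genes were) and Nfil3 called lower (1.19% were). Dbp, at 23.9 ± 7.69 CPM in air, was at 54.0 ± 16.3 in smoke, Per3 at 44.3 ± 9.54 and 60.1 ± 12.4, Nr1d2 at 86.7 ± 9.62 and 105 ± 11.995, and Nfil3 at 24.99 ± 7.46 and 10.1 ± 2.51. Their edgeR adjusted p-values were 4.87e-05, 0.0172, 0.0216 and 1.31e-06 in the same order. Dbp overlaps a gene on the opposite strand and Per3 a gene on its own strand. Time of day was not given in the labels, and its part in these differences was not tested.

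**Figure D3:**
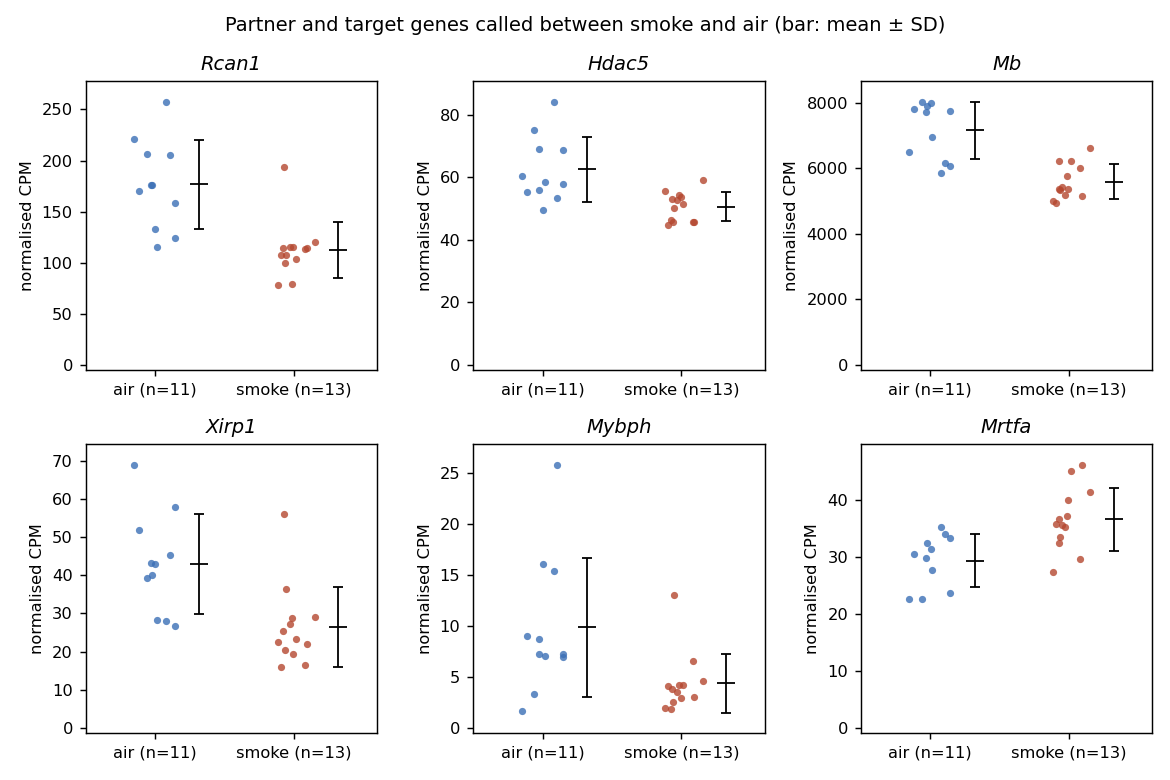
Normalised CPM in each sample (points) with the mean and SD of each group (bars) for the 6 genes called among the lists of MEF2 regulators, E-box or MEF2 controlled genes, differentiation genes and other muscle transcription factors, each panel from 0 on its own axis. Rcan1, Hdac5, Mb, Xirp1 and Mybph are lower in smoke and Mrtfa is higher, with overlap in every panel.

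The factors were next compared among samples of 1 group, by correlating log2 CPM after the mean of each group was removed, over 24 samples and the 28 pairs of the 8 tested members. Of these pairs 26 had a positive r, 6 had an unadjusted permutation p under 0.05 and 3 passed Benjamini-Hochberg adjustment over the 28. These 3 joined Six4, Mef2d and Myf6. Leaving out a sample let Myod1 and Myf6 pass (without air replicate 2 or 7 or smoke replicate 3 or 8) and Myog and Myf6 (without smoke replicate 2 or 5). The sixth, Pax7 and Mef2d, had r 0.42 (permutation p = 0.0470, adjusted p = 0.212). The 22 pairs with an unadjusted p of 0.05 or more had r between −0.17 and 0.44, with adjusted p-values from 0.212 to 0.889.

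Mef2d and Six4 followed each other most closely, with Pearson's r 0.83 (permutation p = 2e-05, adjusted p = 0.00056) and Spearman's rho 0.69 (permutation p = 0.00024, adjusted p = 0.00672). Within air r was 0.91 (n = 11, permutation p = 0.00253) and within smoke 0.80 (n = 13, permutation p = 0.00094). With the 2 samples dropped that lay farthest out in Mef2d, r was 0.70 (permutation p = 0.00056). Seen from Mef2d, Six4 ranked 9th of 10158 genes by r, and seen from Six4, Mef2d ranked 52nd. Without air replicate 11, which was low in both, r was 0.74 (adjusted p = 0.00196).

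Myf6 and Six4 had r 0.77 (permutation p = 0.00016, adjusted p = 0.00224) and rho 0.61 (permutation p = 0.00181, adjusted p = 0.0253), with 0.61 left when the 2 samples at the extremes of Myf6 were dropped (permutation p = 0.00392). Within air r was 0.75 (permutation p = 0.0311) and within smoke 0.84 (permutation p = 0.00034). For Myf6 and Mef2d r was 0.65 (permutation p = 0.00156, adjusted p = 0.0146) and rho 0.40 (permutation p = 0.0595, adjusted p = 0.333). That call was lost without air replicate 11, at r 0.47 (permutation adjusted p = 0.223), and without smoke replicate 10, at r 0.61 (permutation adjusted p = 0.0602). With the 2 samples dropped that lay farthest out in Myf6 it was 0.56 (permutation p = 0.0128). Other genes were as close: 98.5% of genes had a smaller r with Six4 than Myf6 had, and 96.6% a smaller r with Mef2d, where Myf6 ranked 350th.

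All 3 of these factors moved with the makeup of the library. Their log2 CPM was lower where a larger share of counts went to the 10 most abundant genes, among them Gm42418, fibre genes such as Tnnc2, Acta1 and Myh4, and mt-Cytb. For Myf6 r was −0.83 (permutation adjusted p = 0.00072 over 48 relations of 8 factors with 6 library measures, rho −0.70), for Mef2d −0.82 (adjusted p = 0.00112, rho −0.57) and for Six4 −0.81 (adjusted p = 0.00136, rho −0.58). With the 2 samples dropped that lay farthest out in that share, r was −0.66, −0.53 and −0.49 (permutation p = 0.00112, 0.0157 and 0.0260). With the mitochondrial share r was 0.76, 0.82 and 0.82 in the same order (rho 0.65, 0.61 and 0.56). With the 2 samples dropped that lay farthest out in the mitochondrial share, r was 0.53, 0.62 and 0.52 (permutation p = 0.0159, 0.00303 and 0.0160). Myog also passed with the share of the 10 most abundant genes, at r −0.56 (permutation adjusted p = 0.0274, rho −0.36), and had −0.19 with the 2 samples dropped that lay farthest out in that share (permutation p = 0.406). The other 4 tested factors did not pass: Myod1 had r −0.37 and Pax7 −0.39 (permutation adjusted p = 0.187 and 0.228), and Mef2c and Mef2a −0.084 and −0.29 (permutation adjusted p = 0.827 and 0.365). With total count and this share regressed out, an alternative chosen after the data were seen, 0 of the 28 pairs passed, and r was 0.49 for Mef2d and Six4 (permutation adjusted p = 0.230), 0.27 for Myf6 and Six4 and −0.11 for Myf6 and Mef2d.

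**Figure D4:**
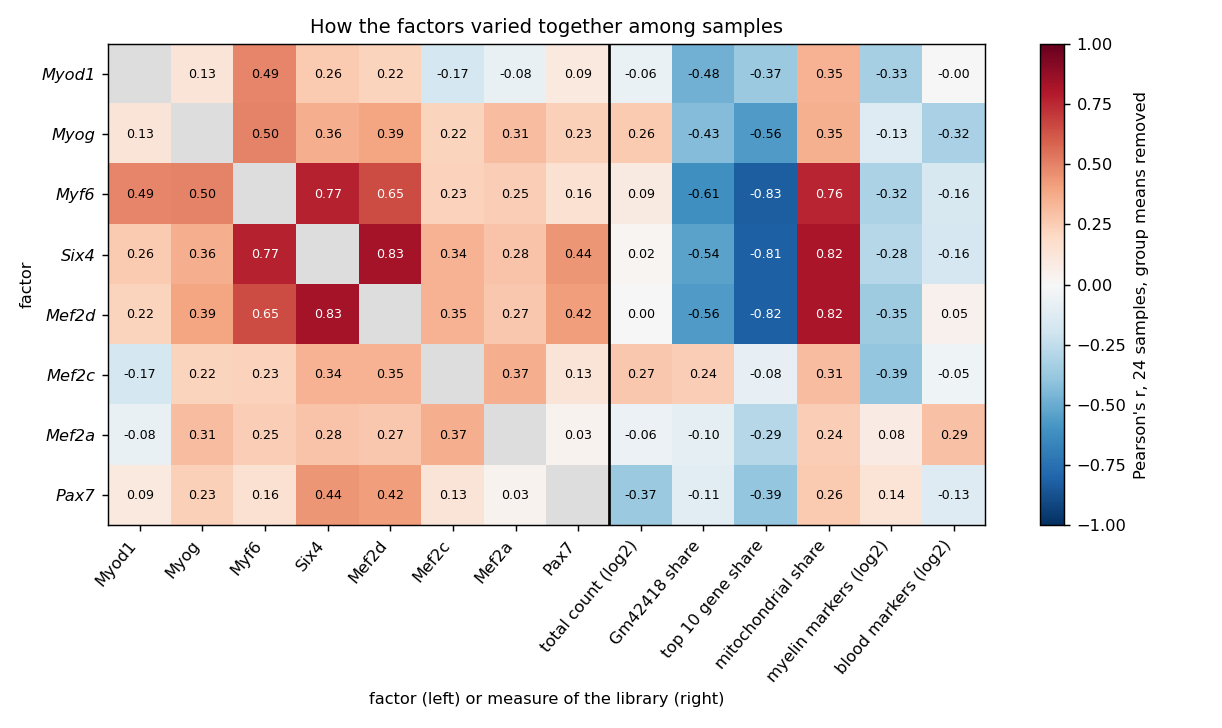
Pearson's r over 24 samples, after removal of group means, between the 8 tested factors (left of the line) and between each factor and 6 measures of its library (right of the line); red is positive, blue negative, and the value is printed in each cell. Six4, Mef2d and Myf6 form the block of high r (0.65 to 0.83), and the same 3 rows have r from −0.83 to −0.81 with the share of the 10 most abundant genes.

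The closest companions of each factor over all 10158 other tested genes were found by r on the same scale, as a description. For Mef2c they were Ppp3ca, the catalytic subunit of calcineurin, at r 0.88 (rho 0.91), Dnajc21 at 0.86 and Rbm24, a muscle RNA-binding protein, at 0.81; r with Ppp3ca was 0.87 in air and 0.89 in smoke. For Mef2d they were Adcy6 (0.90), Srsf1 (0.87) and Podn (0.85), and for Six4 the chaperone Hsp90b1 (0.91), Col4a3bp (0.89) and Set (0.88). For Myf6 they were Yipf7 (0.90), Ube2b (0.89) and again Hsp90b1 (0.89). For Myod1 they were Mcfd2 (0.79), Ccnq (0.69) and 2610001J05Rik (0.67), and for Mef2a Dnttip2 (0.68), Opcml (0.67) and Phf10 (0.66). The low-count factors had Acvr2a (0.82), Spop (0.78) and an unnamed gene (ENSMUSG00000097769, 0.76) for Myog, and Rai1 (0.68), Tm9sf4 (0.65) and Cdk12 (0.65) for Pax7. The 99th percentile of r over all genes was 0.80 for Six4, 0.79 for Myf6 and 0.75 for Mef2d, against 0.62 for Mef2c and 0.51 for Myod1.

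Of 8 relations of a factor with another gene, chosen with earlier results known, 0 passed adjustment over the 8 and 2 had an unadjusted permutation p under 0.05. The nearest was Myod1 with Arntl, the clock activator also called Bmal1, whose protein is known to drive Myod1 in a daily cycle. Their r was 0.56 (permutation p = 0.00637, adjusted p = 0.0510) and rho 0.50 (permutation adjusted p = 0.0720), with r 0.52 in air and 0.60 in smoke, and 0.41 with the 2 samples dropped that lay farthest out in Myod1 (permutation p = 0.0642). It passed in 7 of 24 fits that left out a sample (r up to 0.64 without smoke replicate 11). Arntl itself ran from 3.02 over a median of 5.25 to 15.8 CPM in air and from 1.098 over 4.21 to 8.52 CPM in smoke (log2 ratio −0.47, and 0.480 as adjusted p by edgeR). With the clock output gene Dbp, Myod1 had r −0.30 (permutation adjusted p = 0.385).

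Myog ran against the slow myosin gene Myh7, at r −0.50 (permutation p = 0.0171, adjusted p = 0.0684) and rho −0.52 (permutation adjusted p = 0.0720), and −0.46 with the 2 samples dropped that lay farthest out in Myog (permutation p = 0.0354). It passed without smoke replicate 3 (r −0.63) and without smoke replicate 8 (r −0.57). The other 5 relations had smaller pooled r: Myog with Chrna1, the muscle acetylcholine receptor subunit, at 0.24, Myog with Myh2 at 0.013, Myod1 with the fast myosin Myh4 at −0.15, Mef2c with Myh7 at −0.22, and Pax7 with Cdh15, another satellite cell gene, at −0.29 (permutation adjusted p from 0.372 to 0.953). The pooled value of Mef2c and Myh7 joined r −0.70 in air (permutation p = 0.0184, rho −0.75) and 0.11 in smoke (permutation p = 0.723), and the difference between the groups was not tested. For Myog and Myh7 r was −0.63 in air and −0.40 in smoke.

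**Figure D5:**
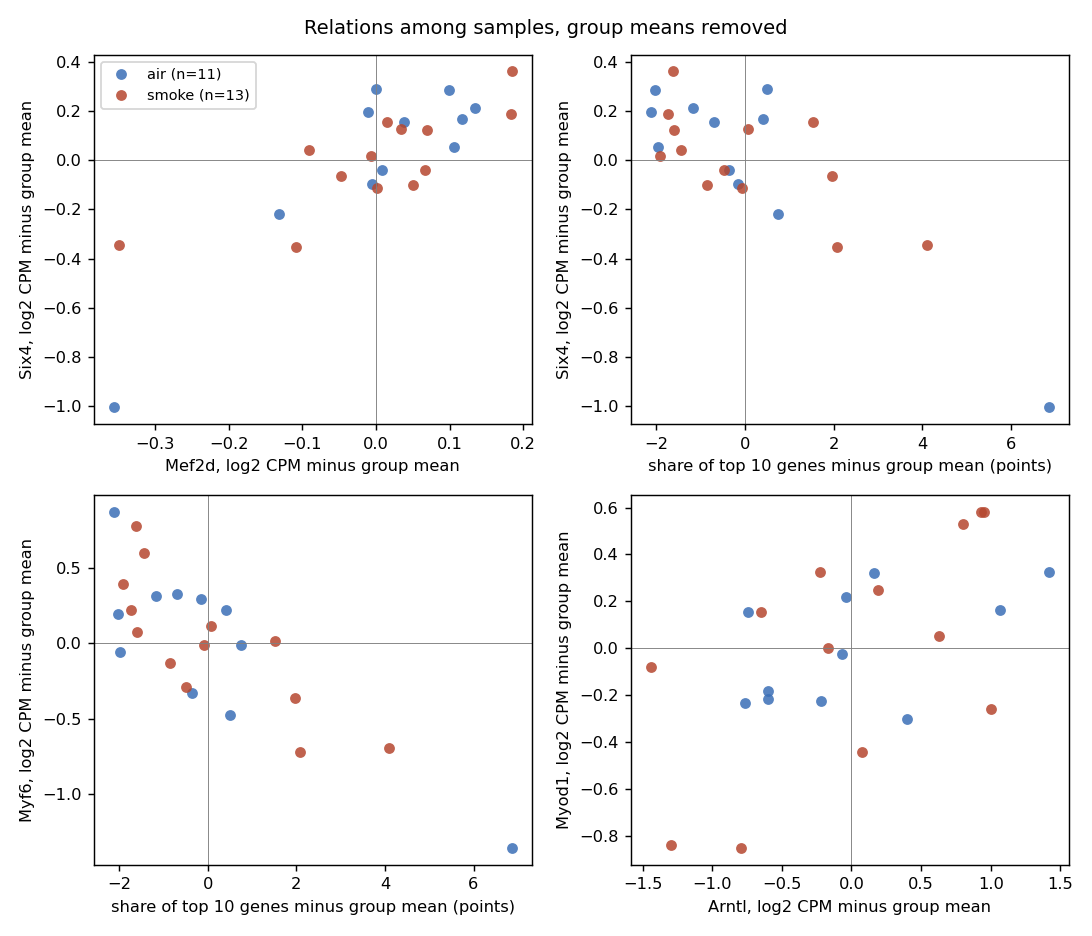
Group-centred log2 CPM of Six4 against Mef2d, of Six4 and Myf6 against the group-centred share of counts in the 10 most abundant genes (percentage points), and of Myod1 against Arntl, each point 1 sample (air blue, smoke red). Air replicate 11 is the lowest point for Six4 and Myf6 and has the highest share, and the remaining samples show the same direction in the first 3 panels.

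For reference, on GRCm38 (GENCODE M21, protein-coding genes, 1-based) Myog lies on chromosome 1 from 134289989 to 134292548 (plus strand), Mef2d on chromosome 3 from 88142372 to 88172086 (plus) and Pax7 on chromosome 4 from 139737062 to 139833528 (minus). Chromosome 7 holds Myod1 from 46376474 to 46379099 (plus) and Mef2a from 67231163 to 67372858 (minus). Myf5, from 107482908 to 107486134, and Myf6, from 107492853 to 107494737, are neighbours on the minus strand of chromosome 10. Six4 lies on chromosome 12 from 73099609 to 73113456 (minus) and Mef2c on chromosome 13 from 83504034 to 83667080 (plus).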

How the data were processed

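The values the authors deposited are whole-number counts, not normalised, for each Ensembl gene and sample. Per the submitters' processing notes, STAR and DESeq2 were used and the build was mm9, with no roles given; the counting tool, annotation, strand use and molecular identifiers are not given in the sources used here. Per the file headers all samples were read on lane 6. Gene symbols came from GENCODE M21, which held 47224 of 47643 IDs (99.1%), and coordinates are those of GRCm38, not of the authors' files. Groups and replicate numbers came from the titles.

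The test was run in edgeR 4.0.16 (R 4.3.3): filterByExpr with a minimum count of 10, TMM scaling and the quasi-likelihood F-test on 24 samples without covariates, adjusted by Benjamini-Hochberg over all tested genes. Log2 fold changes are smoke against air, and intervals are 95%. Correlations used log2 CPM with a prior count of 2, minus group means, and 100000 two-sided permutations within groups. The procedures were tested on simulated data. Alternatives were DESeq2 1.42.0, limma 3.58.1, scaling by RLE or the upper quartile, other filters, thinning, leaving out the 10 most abundant genes, 1 surrogate variable (sva 3.50.0), a replicate block and leaving out each sample. Regressing out total count and the share of the 10 most abundant genes was added after the data were seen. Members and lists were chosen with earlier results of these data known. Named genes were all members, the 3 closest genes of each, and of each list the called genes (at most 5) or else the 2 with the smallest p, and the genes of the 8 relations. No pair of samples within a group agreed within sampling noise (lowest chi-square per gene 2.55 over 55 air and 78 smoke pairs). Calcr, Mymk, Mymx, Mef2b, Tnnc2 and Acta1 were named after their values were seen. The result of 1 gene that this rule names is not reported here.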

Additional observations from a re-analysis of the deposited data

How the results depend on the processing

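No factor was called under any of 11 alternatives or in any of 24 fits that left out a sample (0 to 0). Against 195 genes called, DESeq2 gave 323 and 1 surrogate variable 436; the cause was not tested. The other alternatives gave 138 to 262 genes, and leaving out a sample 141 to 254. The log2 fold change of Pax7 turned to 0.033 under limma voom and ran from −0.10 to 0.070 when samples were left out. Thinning to the smallest library removed Myog from the tested genes.

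Replicate numbers appear in both groups but pair nothing in the labels, and deviations of same-numbered samples correlated at a mean r of −0.0059 over 11 pairs. A fit with replicate number as block, which also leaves out smoke replicates 12 and 13, called 138 genes, 110 of them shared, with 0 factors. Mybph, Xirp1, Mrtfa and Nr1d2 were not called there (adjusted p = 0.0702, 0.0671, 0.102 and 0.0911), at log2 fold changes of −1.15, −0.70, 0.29 and 0.27.

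The 3 factor pairs past the threshold became 0 with total count and the share of the 10 most abundant genes regressed out, where r turned to −0.11 for Myf6 and Mef2d, −0.032 for Myog and Myf6, −0.047 for Myog and Chrna1, −0.073 for Myog and Myh2, and 0.14 for Myod1 and Myh4. Leaving out a sample gave 2 to 4 pairs and 0 to 2 fixed relations. Myog and Myh2 had rho −0.16, and r from −0.17 to 0.13 when samples were left out. Myf5, Myog and Pax7 had the fewest reads of the factors, and how far depth limited them was not tested. The 95% interval of the fold was 0.679 to 1.28 for Myog and 0.753 to 1.32 for Pax7, against 0.729 to 1.17 for Myf6.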
